A study of Mus musculus with 19 samples.

Results

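The public CDR3s described here are the 316 CDR3 amino acid sequences of the T cell receptor beta chain (TRB) that were listed in every one of 16 lymph node libraries of CD4+ T cells. They were chosen by that measured presence, out of 1074236 CDR3s listed in at least 1 node library and 1082330 in the whole series, and made up 0.0294% of the node CDR3s. Their presence in all nodes is therefore the selection itself and not a result. All animals were wild-type Balb/c mice, and CD4+ TCRbeta+ cells were sorted 7 days after surgery or injection. Mediastinal nodes, which drain the heart, came from mice with a ligated left anterior descending coronary artery (MI for myocardial infarction, n = 3) or with a thoracotomy and no ligation (sham, n = 4). The axillary node groups had subcutaneous injections of Titermax Gold adjuvant, alone (n = 4), with 100 µg of porcine cardiac myosin (n = 2) or with 1 mg of mouse heart extract (n = 3). The infarcted hearts of MI mice gave 3 more libraries, each of 5000 sorted cells against 500000 for a node. Ligation models an infarct by stopping flow in 1 artery, the sham and MI mice received buprenorphine, and the adjuvant is shared by all axillary groups. The labels do not say whether a library came from 1 animal or from pooled animals.

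Each T cell builds its beta chain in the thymus by joining a V, a D and a J segment of the TRB locus. The CDR3 is the loop that spans these joints and touches the peptide held by the MHC molecule. Enzymes trim the segment ends and add untemplated nucleotides between them, so most CDR3s are rare, while a CDR3 that needs few added nucleotides, or that several different joins encode, arises again and again. A CDR3 found in many individuals is called public.

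Only TRB transcripts were amplified, so the CD4+ label could not be checked against other marker genes. Node libraries held 7534295 to 9235800 reads and 38437 to 230684 distinct CDR3s, and hearts 2426715 to 5126910 reads and 2898 to 4795 CDR3s. The lowest count in any table was 2 reads, so an unlisted CDR3 may still have had a read. Reads were made by PCR without molecular identifiers, and confidence intervals here cover counting error only.

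The 10 public CDR3s of highest mean share over the 16 node libraries are shown first. Each has a start like that of a V segment and an end like that of a J segment. Their length and the number of residues between these ends vary. CDR3s are written as in the deposited tables, which leave out the first cysteine and the last phenylalanine.
Rank 1, with TRBV5 and TRBJ1-3: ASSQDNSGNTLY
Rank 2, with TRBV5 and TRBJ2-5: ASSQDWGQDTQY
Rank 3, with TRBV5 and TRBJ1-4: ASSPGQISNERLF
Rank 4, with TRBV4 and TRBJ1-1: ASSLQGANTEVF
Rank 5, with TRBV19 and TRBJ1-1: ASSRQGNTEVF
Rank 6, with TRBV14 and TRBJ1-1: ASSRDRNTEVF
Rank 7, with TRBV19 and TRBJ1-2: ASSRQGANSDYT
Rank 8, with TRBV5 and TRBJ1-3: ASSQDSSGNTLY
Rank 9, with TRBV19 and TRBJ2-1: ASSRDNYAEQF
Rank 10, with TRBV19 and TRBJ1-1: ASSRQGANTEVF

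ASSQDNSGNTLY was the most abundant CDR3 of the nodes by mean share, at 0.0295% ± 0.0110 of reads (SD, n = 16). It held 0.0329%, 0.0245%, 0.0189% and 0.0459% of reads in sham nodes 1 to 4 and 0.0170%, 0.0250% and 0.0493% in MI nodes 1 to 3. In axillary nodes it held 0.0451%, 0.0271%, 0.0296% and 0.0275% after adjuvant, 0.0156% and 0.0400% after myosin, and 0.0229%, 0.0161% and 0.0349% after heart extract. Its highest and lowest libraries were MI node 3 and myosin node 1, and the ranges of all 5 node groups overlapped. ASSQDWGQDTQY, the next public CDR3, held 0.0279% ± 0.00932 of reads over the 16 nodes, from 0.0520% in sham node 4 down to 0.00951% in heart extract node 3. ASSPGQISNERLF held 0.0270% ± 0.0134, from 0.00827% to 0.0579%. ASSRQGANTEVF, at rank 10 of the public CDR3s, held 0.0225% ± 0.0101. Not 1 of these 10 was listed in a heart library.

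Being listed everywhere did not place every public CDR3 among the most abundant. The median public CDR3 had 8649 reads over the nodes, against 23 for the other node CDR3s, a difference that the selection favours. The mean node share of the public CDR3s ran from 0.000508% to 0.0295%, a 58.1-fold range, with a median of 0.00648%. Of the 316 node CDR3s with the highest mean share, 124 were public, and the median public CDR3 ranked at place 447 among all node CDR3s. The lowest ranked at place 37528. In single libraries, 3 to 46 of the 100 most read CDR3s and 42 to 159 of the 1000 most read were public.

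Presence in the last library often rested on few reads. In their lowest library, 209 of the 316 had at least 10 reads, 86 had at least 100, and 52 were at 2 reads, the lowest count listed. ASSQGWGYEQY, just inside the selection, had 2 reads in each of MI node 3, myosin node 2 and heart extract node 3 but 364 in its highest library, for a mean share of 0.000626%. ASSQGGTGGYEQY (mean 0.000828%), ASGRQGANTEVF (0.00104%), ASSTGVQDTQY (0.00139%) and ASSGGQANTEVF (0.00149%) also reached only 2 reads somewhere. Just outside it, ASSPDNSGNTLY held a mean share of 0.0192% and at least 691 reads in 15 libraries, and was not listed in adjuvant node 3. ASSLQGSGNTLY (0.0186%, missing in heart extract node 3), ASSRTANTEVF (0.0172%, missing in sham node 4), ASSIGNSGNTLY (0.0158%, missing in adjuvant node 3) and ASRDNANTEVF (0.0158%, missing in heart extract node 1) were likewise absent from a single library. These 4 libraries and adjuvant node 1 listed the fewest distinct CDR3s, from 38437 to 53871. Of the 527 CDR3s in exactly 15 nodes, 168 were missing from heart extract node 3, 112 from adjuvant node 3, 79 from sham node 4, 57 from adjuvant node 1 and 54 from heart extract node 1, and 0 from sham node 3, MI node 1 or MI node 2.

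**Figure D1:**
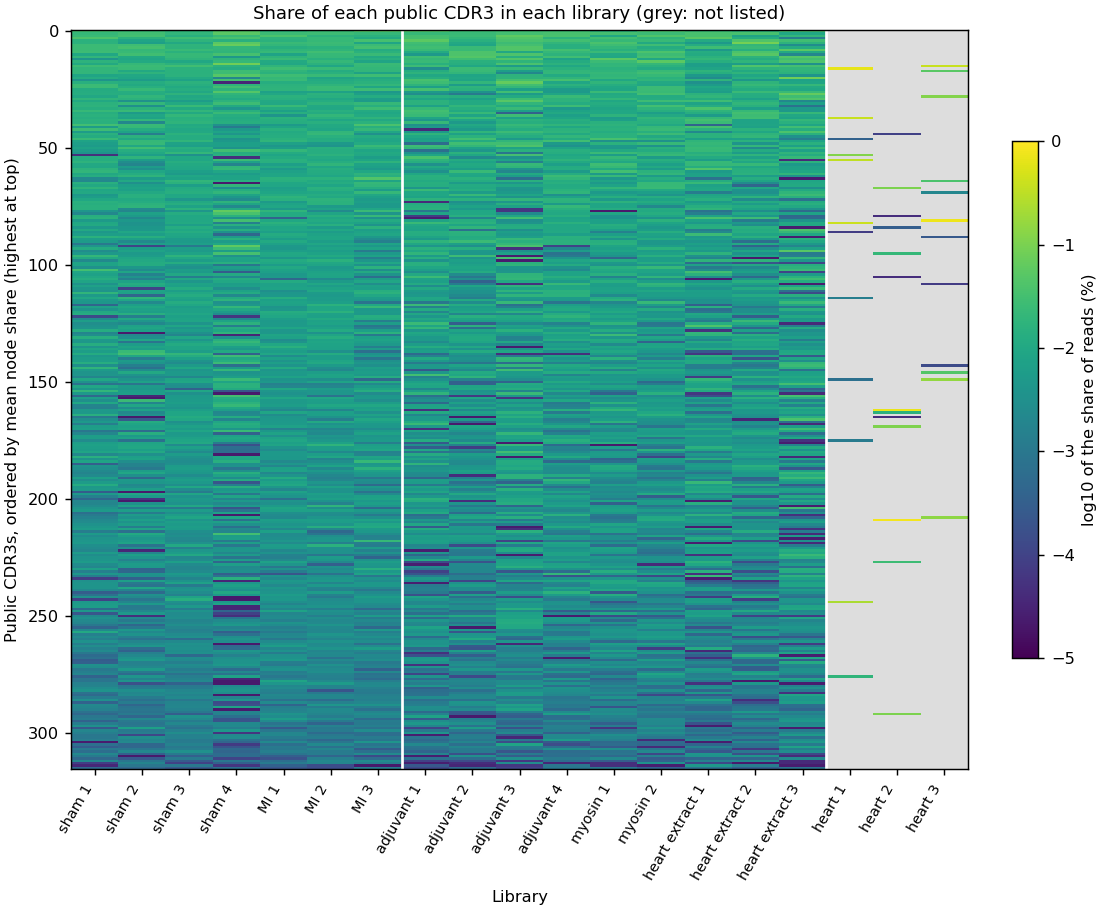
Share of reads of each of the 316 public CDR3s (rows, highest mean node share at the top) in the 16 node libraries and 3 heart libraries (columns), as log10 of the percent of reads, with unlisted CDR3s in grey. White lines separate mediastinal nodes, axillary nodes and hearts. Node columns are filled throughout by selection, dark cells at few reads gather in libraries with few distinct CDR3s, and the heart columns hold 12, 13 and 12 entries.

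TRBV5, named Tcrb-V1 in older nomenclature per RefSeq, was the most-read V segment of 105 public CDR3s, or 33.2% (exact 95% interval 28.1% to 38.7%), against 14.2% of the other node CDR3s. TRBV19 (Tcrb-V6) led 73, or 23.1% (18.6% to 28.2%), against 14.3%. TRBV14 led 40, or 12.7% against 5.68%, and TRBV4 (Tcrb-V10) 32, or 10.1% against 7.17%. Among others, TRBV13-2 (14 members), TRBV20 (14), TRBV31 (5), TRBV1 (4) and TRBV13-3 (1) made up smaller shares of the public CDR3s than of the others, at 4.43% against 10.2%, 4.43% against 8.43%, 1.58% against 8.40%, 1.27% against 8.83% and 0.316% against 4.30%. TRBV13-1 led 26, at 8.23% against 7.67%. In all, 12 of the 22 V segments led a public CDR3.

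By reads, TRBV5 was again above the whole library, and TRBV19 was below it. TRBV5 took 33.4% ± 3.48 of the reads of the public CDR3s (SD over 16 node libraries) and 20.02% ± 1.07 of all reads, and was above the library as a whole in 16 of 16. TRBV19 took 17.5% ± 2.27 of their reads against 23.4% ± 1.25 of all reads and was below in 16 of 16. TRBV1 stood at 1.32% ± 0.320 against 8.33% ± 0.447. TRBV4 took 12.7% ± 1.92 against 8.945% ± 1.00 and was above in 16 of 16. TRBV14 was close to the library, at 14.2% ± 2.84 against 13.2% ± 0.823, and above in 10 of 16. TRBV13-3, a smaller share by count, was above in 15 of 16 by reads, at 1.78% ± 0.257 against 1.54% ± 0.0984. TRBV2 led no public CDR3 but took 6.09% ± 1.27 of their reads, against 4.64% ± 0.432 of all reads. Reads of similar V segments cannot be told apart from misassigned reads here, because the way segments were assigned is not given in the sources used here.

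J use was closer to that of the other CDR3s. TRBJ2-7 led 53 public CDR3s (16.8% against 14.2% of the others), TRBJ1-1 46 (14.6% against 11.2%) and TRBJ2-3 40 (12.7% against 10.3%). By reads TRBJ2-3 went the other way, at 10.1% ± 1.06 of public reads against 11.2% ± 0.473 of all reads. It was above the whole library in 2 of 16 nodes. TRBJ1-3 led 38, or 12.0% (exact 95% interval 8.65% to 16.1%), against 6.69%. TRBJ2-1 led 18 (5.70% against 10.8%), and TRBJ1-5 led 0 of 316 (exact interval up to 1.16%) against 3.23% of the others. The 2 J clusters were used alike, with TRBJ1 in 38.9% of the public CDR3s and 37.3% of the others. The most frequent leading pair was TRBV5 with TRBJ2-7, in 22 members, followed by TRBV5 with TRBJ2-5 in 19 and TRBV5 with TRBJ2-4 in 15.

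**Figure D2:**
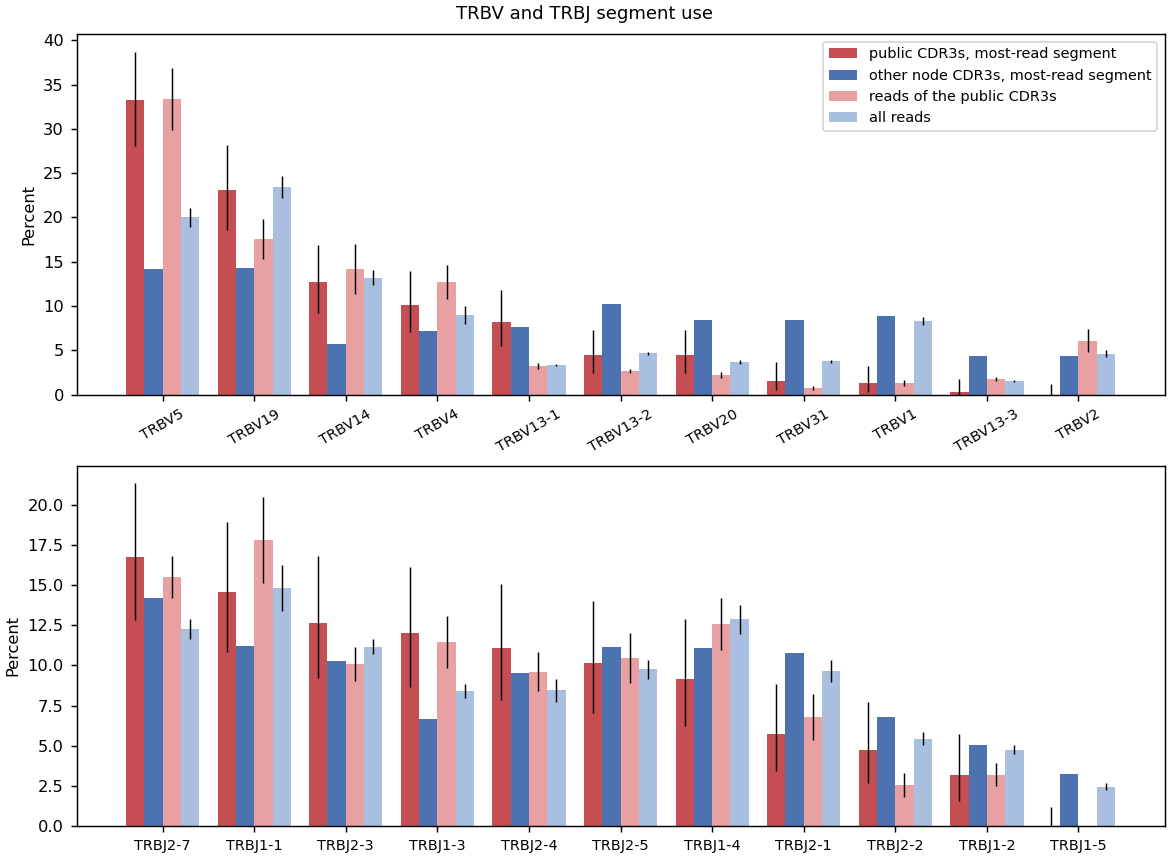
Percent of CDR3s led by each V segment (top) and J segment (bottom), for the public CDR3s (red, bars are exact 95% binomial intervals) and the other node CDR3s (blue), beside the percent of reads with that segment among public CDR3s (light red) and all CDR3s (light blue), as mean ± SD over 16 node libraries. V segments that led 1 or no member are left out except TRBV13-3 and TRBV2. TRBV5 stands at 33.2% of public CDR3s against 14.2% of the others, and TRBJ1-5 at 0.

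The public CDR3s were shorter than the rest. Their mean length was 11.5 residues (SD 1.05, n = 316), against 12.3 (SD 1.47) for the other node CDR3s. They ran from 8 to 14 residues, with 114 of 12 residues, 95 of 11, 52 of 13 and 43 of 10. Lengths of 14 or more made up 0.633% of them and 20.2% of all other node CDR3s. The shortest was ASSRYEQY with 8 residues, in which a single residue, R, lies between the V start ASS and the J end YEQY. The next length, 9 residues, was that of 9 members, of which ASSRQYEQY and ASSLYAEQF had the highest node shares, and the 2 longest, at 14, were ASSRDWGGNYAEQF and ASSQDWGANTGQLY.

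Weighted by reads, the lengths of the public CDR3s were 11.6 residues on average in the node libraries (SD 0.0442 over 16 libraries), against 12.1 (SD 0.0183) for all reads. The length by reads lay below that of the whole library in 16 of 16 nodes.

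Fewer residues lay outside the germline-like ends. For each V and J segment, the start or end shared by at least 0.5 of the distinct non-public CDR3s was taken as its consensus end, such as ASSQ for TRBV5, ASS for TRBV19, GAR for TRBV20, TCSA for TRBV1, YEQY for TRBJ2-7 and SGNTLY for TRBJ1-3. The public CDR3s had 3.48 residues (SD 1.03) covered by neither end, and the other node CDR3s 4.91 (SD 1.25). Of the public CDR3s, 48.1% had at most 3 such residues, against 11.8% of the others. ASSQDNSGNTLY had 2, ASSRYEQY 1 and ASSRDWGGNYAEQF 6, the most of any member. These counts use amino acids, and the untemplated nucleotides themselves are not in the tables.

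**Figure D3:**
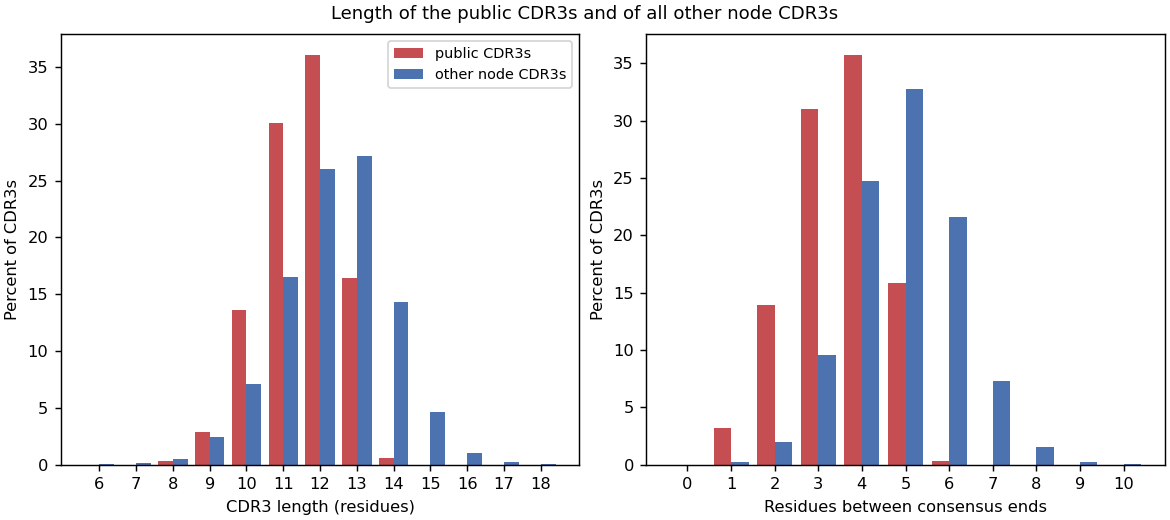
Percent of the 316 public CDR3s (red) and of all other node CDR3s (blue) by length in residues (left, 6 to 18 shown) and by the number of residues that the consensus V start and J end do not cover (right). The public CDR3s peak at 12 residues with 36.1%, and the others at 13 with 27.1%. On the right the peaks lie at 4 and 5 residues.

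The residues after ASS set the most common starts. ASSQ, the TRBV5 start, opened 77 public CDR3s (24.4% against 13.1% of the others), and 75 of them were led by TRBV5. ASSR opened 66 (20.9% against 3.65%), ASSP 35 (11.1% against 4.40%), ASSD 27 (8.54% against 5.09%) and ASSG 23 (7.28% against 1.75%). The D segments leave short motifs that depend on the reading frame. DWG, a D2 frame, was in 31 public CDR3s (9.81%), 7.21% of CDR3s in 15 nodes and 2.88% of those in 1 node. TGG was in 24 (7.59% against 5.90% of all other node CDR3s), GQG in 16 (5.06% against 3.96%), DRG in 15 (4.75% against 3.40%) and GLG in 2 (0.633% against 2.88%). A CDR3 can hold more than 1 of these motifs, and a match does not show that the D segment encoded it.

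Many public CDR3s were close to each other in sequence. A single exchange of residues turned 240 of the 316 (75.9%) into another public CDR3, giving 246 such pairs, and the largest linked group held 17. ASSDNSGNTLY had the most such neighbours, 7. Of CDR3s in 15 nodes, 53.5% were 1 exchange away from a public CDR3, and of CDR3s in 1 node 0.484%. The ending NSGNTLY, the TRBJ1-3 consensus end SGNTLY with an N before it, was singled out after its count was seen. It closed 19 public CDR3s (6.01% against 0.917% of the others), led by several V segments. These are 4 of them, each led by a different V segment.
TRBV5: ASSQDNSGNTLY
TRBV19: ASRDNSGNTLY
TRBV20: GARDNSGNTLY
TRBV1: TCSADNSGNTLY
They held 0.0295% ± 0.0110, 0.0138% ± 0.00910, 0.0133% ± 0.00399 and 0.0103% ± 0.00442 of node reads (SD, n = 16).

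A public CDR3 was usually listed with many V segments and 1 J segment. Over the 16 nodes the median was 11 V-J pairs per public CDR3, from 1 to 17, and 175 had at least 10. The mean was 9.05 V segments and 1.04 J segments, and 304 members had only 1 J. The median was 1 pair over all other node CDR3s, 3 for CDR3s in 8 nodes and 9 for those in 15. CDR3s in more nodes also had more reads, with a median of 14 reads in all at 1 node, 692 at 8, 5496 at 15 and 8649 for the public CDR3s. The part of read number in the number of pairs was not tested.

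Most of the extra pairs were minor. The leading pair held a median of 54.4% of a public CDR3's node reads and over 50% in 172 members. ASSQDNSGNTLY had 9 pairs, all with TRBJ1-3: TRBV5 held 33389 of its 39351 reads and was listed in 16 nodes, TRBV2 held 5497 and was listed in 13, and the other 7 held at most 333 each. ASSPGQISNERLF was more even, with 15416 reads for TRBV5, 11251 for TRBV14 and 5284 for TRBV19. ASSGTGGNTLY had the most pairs, 17, from 10 V segments and 2 J segments, and its leading pair held 34.0% of reads. Another 10 members had 16 pairs, and of these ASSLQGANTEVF, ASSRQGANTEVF, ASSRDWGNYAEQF and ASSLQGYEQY had the highest node shares.

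The number of pairs split by the first residues. All 293 public CDR3s that begin with AS had at least 2 pairs, with a median of 11. The 23 with other starts, GAR of TRBV20, AWS of TRBV31 and TCSA of TRBV1, had exactly 1 pair each. GARDNSGNTLY, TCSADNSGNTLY, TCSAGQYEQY, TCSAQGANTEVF and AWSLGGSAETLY were the most abundant of these. Members with ASSQ had a median of 5 pairs and members with ASSR 13.

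Most public CDR3s were not listed with the same V-J pair in every node. The lowest count listed was 2 reads, so an unlisted pair may still have been present. For 226 of the 316, not 1 V-J pair was listed in all 16 libraries, and 90 had at least 1 such pair. The leading pair was the same in all 16 nodes for 44 members, and the median member had 4 different leading pairs across the 16. Of the 90, 40 were led by TRBV5, 14 by TRBV20 and 4 by TRBV19, while TRBV14, which led 40 public CDR3s, led none of them.

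**Figure D4:**
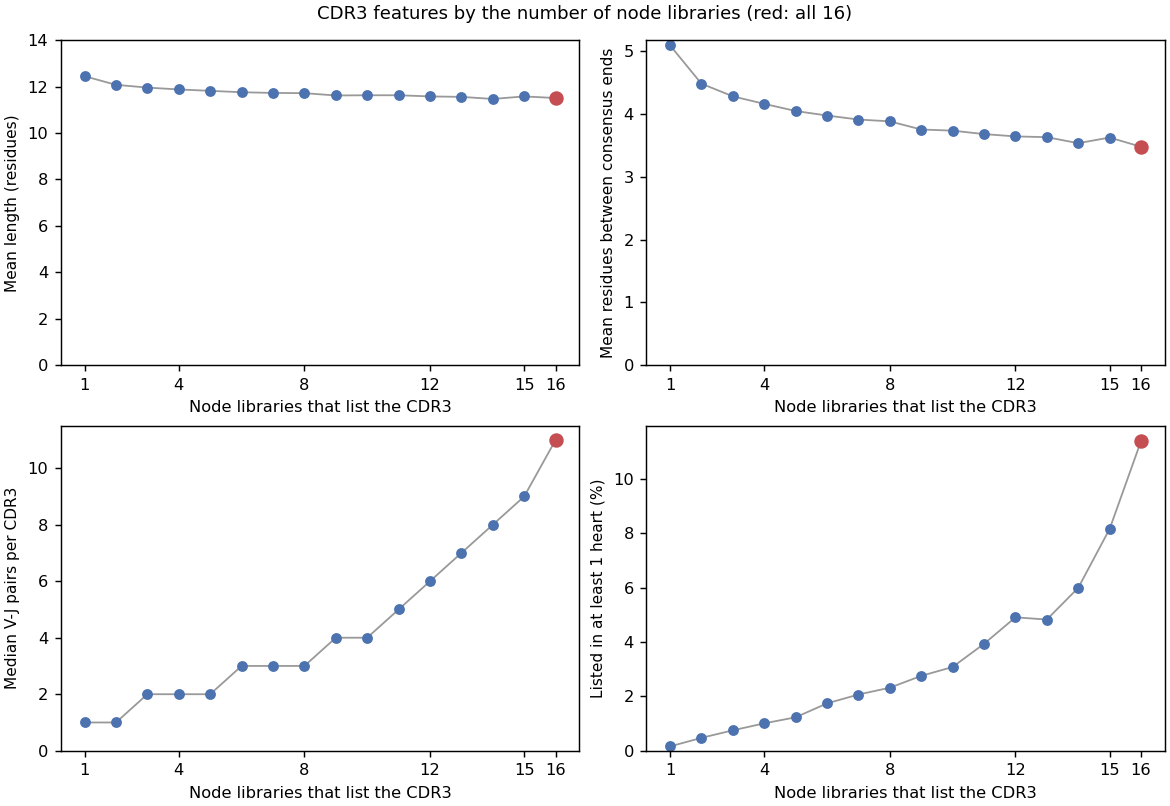
Features of the node CDR3s by the number of node libraries that list them (1 to 16), with the public CDR3s in red: mean length in residues, mean residues between the consensus ends, median V-J pairs per CDR3 and the percent listed in at least 1 heart. From 1 to 16 nodes, mean length moves from 12.4 to 11.5 residues, residues between the ends from 5.10 to 3.48, median pairs from 1 to 11, and the percent in a heart from 0.158% to 11.4%.

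These features differed across CDR3s grouped by number of nodes. Mean length was 12.4 residues at 1 node, 11.7 at 8, 11.6 at 15 and 11.5 at 16, and residues between the ends were 5.10, 3.89, 3.63 and 3.48. The mean length at 14 nodes, 11.47, was below that at 15, so the series was not strictly ordered. TRBV5 led 29.98% of the CDR3s in 15 nodes, within the interval of the public ones, and TRBV19 led 18.03%, below it. TRBJ1-5 led 0.569% of them.

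Together the public CDR3s held 2.08% to 2.97% of node reads. Their summed share was 2.19%, 2.08%, 2.21% and 2.86% in sham nodes 1 to 4 and 2.18%, 2.27% and 2.25% in MI nodes 1 to 3. It was 2.43%, 2.15%, 2.97% and 2.41% in adjuvant nodes 1 to 4, 2.37% and 2.46% in myosin nodes, and 2.39%, 2.27% and 2.76% in heart extract nodes. Group means were 2.33% ± 0.352 for sham, 2.24% ± 0.0481 for MI, 2.49% ± 0.342 for adjuvant, 2.42% ± 0.0576 for myosin and 2.47% ± 0.256 for heart extract (SD). The ranges of MI and sham overlapped, as did those of each antigen group and adjuvant. The 3 highest values were in sham node 4, adjuvant node 3 and heart extract node 3, which were also the highest of their groups in reads per distinct CDR3. The 4 nodes with the most distinct CDR3s, 140864 to 230684, lay between 2.18% and 2.27%. The part of these differences in library diversity was not tested.

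**Figure D5:**
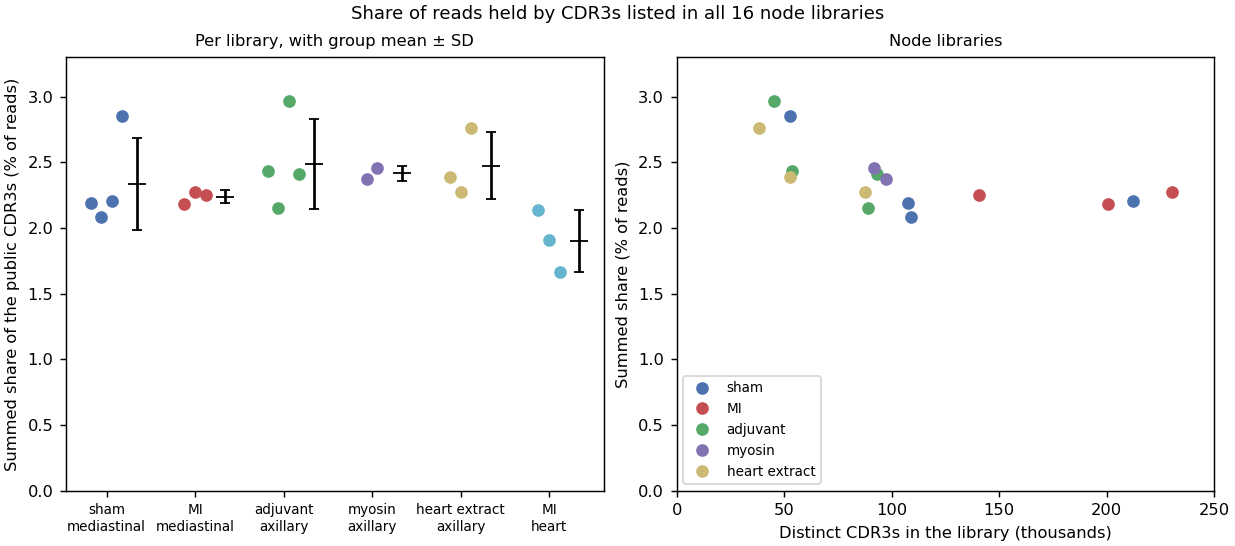
Left, summed share of the 316 public CDR3s in percent of reads for each library by group, with the group mean ± SD to the right of the points. Right, the same share against the number of distinct CDR3s for the 16 node libraries. Nodes lie between 2.08% and 2.97% with overlapping groups, hearts between 1.67% and 2.14%, and the 3 highest nodes are among the 5 with the fewest distinct CDR3s.

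Single public CDR3s varied far more than their sum. The coefficient of variation of read share over the 16 nodes had a median of 0.738 and ran from 0.301 to 1.86. The highest library exceeded the lowest 38.3-fold for the median member, 2.81-fold at least and 2769-fold at most. Within groups the SD of log2 share had a median of 1.36. The steadiest was GARDNSGNTLY, which held 0.0133% ± 0.00399 of reads, with both its lowest value, 0.00332%, and its highest, 0.0201%, among the heart extract nodes. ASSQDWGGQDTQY (coefficient 0.328), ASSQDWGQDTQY (0.334), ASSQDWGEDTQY (0.335) and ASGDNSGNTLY (0.345) came next, and in 4 of the 5 steadiest the leading V was TRBV5 or TRBV13-2. The most variable after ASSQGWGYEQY (1.86) was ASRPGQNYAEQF (1.73), which held 0.0565% of reads in sham node 4, 0.0369% in adjuvant node 3 and at most 0.00825% in the other 14 nodes. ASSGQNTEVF (1.69), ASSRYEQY (1.65) and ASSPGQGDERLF (1.64) followed, the last with 5477 reads in sham node 4 and 2 in myosin node 1.

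The order of the public CDR3s by share was no closer within groups than between them. Across the 316 members, Spearman's rho between libraries had a median of 0.461 over the 19 pairs from the same group (0.215 to 0.751) and 0.484 over the 101 pairs from different groups (0.208 to 0.742). The members share sequence and libraries, so this is a description. More abundant members were steadier, with a median coefficient of variation of 0.562 in the 79 members of highest mean share and 0.861 in the 79 of lowest.

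The contrasts asked whether shares of public CDR3s differed after infarction or immunization, or between sham mediastinal and adjuvant axillary nodes. In a fit of 121771 CDR3s, edgeR's quasi-likelihood test with Benjamini-Hochberg adjustment called 0 of the 316 public CDR3s between MI and sham, where percent called over all CDR3s was 0. It also called 0 public CDR3s for heart extract against adjuvant, myosin against adjuvant and sham mediastinal against adjuvant axillary nodes, with 0 over all CDR3s in each. At an unadjusted p under 0.05, 0 public CDR3s passed in any of the 4, and 11900, 18224, 16360 and 31144 of all CDR3s did. The fit gave public CDR3s wide SEs, such as 2.49 log2 units for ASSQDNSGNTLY between MI and sham. The within-group SD of log2 share had a median of only 1.36 over the public CDR3s. This fit could thus hardly call a public CDR3, and its 0 calls say little about whether infarction or immunization moved them. DESeq2 called 0, 1, 0 and 0 of the 313 public CDR3s to which it gave an adjusted p, and 3816, 12095, 10136 and 7411 of all CDR3s.

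The median log2 difference of the public CDR3s was -0.01 for MI against sham (0.33 over all CDR3s tested), -0.09 for heart extract (0 over all), -0.10 for myosin (0 over all) and -0.12 for sham mediastinal against adjuvant axillary (0.79 over all). With TMM factors, which rescale libraries, these medians were 0.40 (0.58 over all), -0.18 (0), 0.24 (0) and 0.37 (1.19), so that the sign turned in 3 of the 4. With DESeq2 the heart extract median was 0.07, also of the other sign. The size factors of DESeq2 rest on the public CDR3s themselves, which holds their median near 0. The sign of that median is therefore no check on the edgeR value. The last 3 contrasts share the adjuvant libraries. Sham mediastinal and adjuvant axillary nodes differ in node site, surgery, buprenorphine and adjuvant at once, so these cannot be told apart. A p that misses the threshold does not show that shares were equal, and a difference of 1 log2 unit lies within the within-group SD of the median member.

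The CDR3 with the smallest member p for heart extract was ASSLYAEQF, led by TRBV14 and TRBJ2-1. It had 49, 18 and 9 reads in the heart extract nodes and 1084, 517, 1254 and 554 in the adjuvant nodes, or 0.000316% against 0.0105% of reads on average. Every heart extract node lay below each of the other 13 nodes, which ran from 400 reads in myosin node 1 to 1254. The log2 difference was -5.04 (SE 3.37, edgeR adjusted p = 0.324), which did not pass, while DESeq2 gave an adjusted p of 0.0151 for it. Over the other alternatives, all edgeR fits, its adjusted p ran from 0.245 to 1. The next smallest p was that of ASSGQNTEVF, with 1848, 84 and 1346 reads after heart extract and 95, 128, 107 and 15 after adjuvant (log2 difference 3.74, SE 3.03, edgeR adjusted p = 0.455). Its groups overlapped.

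Between MI and sham nodes the smallest p was that of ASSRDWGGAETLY, with 321, 462 and 199 reads after MI and 134, 15, 35 and 2 after sham (log2 difference 2.86, SE 3.14, edgeR adjusted p = 0.995). These groups did not overlap. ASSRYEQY had 191, 75 and 260 reads after MI and 444, 933, 238 and 2603 after sham (log2 difference -2.56, SE 3.09, edgeR adjusted p = 1), with sham node 3 inside the MI range. Without sham node 1 the difference of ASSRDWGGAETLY was 4.36, and without sham node 4 that of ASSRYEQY was -1.57. With a replicate block it was -1.45. For myosin, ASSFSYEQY had 12 and 21 reads against 532, 954, 657 and 2 after adjuvant (-4.94, SE 4.35, edgeR adjusted p = 0.555). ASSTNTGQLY had 1148 and 200 against 7, 181, 19 and 50 (3.42, SE 3.16, edgeR adjusted p = 0.591). Adjuvant node 4 was the exception for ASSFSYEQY, at 2 reads. The difference of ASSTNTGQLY was 1.84 without myosin node 1, with the lone remaining myosin library assumed to vary like the other groups.

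Between sham mediastinal and adjuvant axillary nodes, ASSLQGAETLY had 1023, 2640, 1808 and 31 reads against 44, 399, 4 and 4 (log2 difference 3.59, SE 2.80, edgeR adjusted p = 0.415). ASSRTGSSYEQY had 1102, 353, 252 and 2172 against 93, 76, 49 and 138 (3.39, SE 2.78, edgeR adjusted p = 0.445). The groups of the second did not overlap, and sham node 4 overlapped the adjuvant range for the first. Without adjuvant node 2 the difference of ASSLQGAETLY was 6.13. Over all members, the MI and sham groups did not overlap for 7 public CDR3s higher after MI (2.2%, against 3.77% of all CDR3s tested). Another 10 were lower (3.2% against 0.209%). For heart extract against adjuvant these were 5 higher (1.58% against 0.245%) and 9 lower (2.85% against 0.269%). For myosin they were 19 higher (6.01% against 4.43%) and 13 lower (4.11% against 0.218%). For sham mediastinal against adjuvant axillary they were 2 higher (0.633% against 0.466%) and 5 lower (1.58% against 0.087%). Most CDR3s tested were unlisted in several libraries and so could hardly be lower than a whole group, whereas the public CDR3s were listed in all 16, so the percentages are not a like background.

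Few public CDR3s were listed in the infarcted hearts. Heart 1 listed 12 of the 316 (3.80%, exact 95% interval 1.98% to 6.54%), heart 2 listed 13 (4.11%, 2.21% to 6.93%) and heart 3 listed 12 (3.80%, 1.98% to 6.54%). In all, 36 were in at least 1 heart, 1 in 2 hearts and 0 in 3, which leaves 280 in none. Hearts came from 5000 cells, so absence from a heart was not detectable as absence from the tissue. The share of CDR3s listed in a heart was 11.4% for the public CDR3s, 8.16% for those in 15 nodes, 2.32% for those in 8 and 0.158% for those in 1.

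By reads the public CDR3s held 2.14%, 1.90% and 1.67% of hearts 1, 2 and 3 (mean 1.90% ± 0.236, SD, n = 3), against 2.18% to 2.27% in the MI nodes. All 3 hearts lay below the 3 MI nodes, heart 1 only narrowly. The selection required presence in every MI node and did not use the hearts. It therefore favours the nodes in this comparison. With 12 or 13 CDR3s carrying each sum, a heart's share rests on few clonotypes. Of the 36, 24 had at least 100 reads in a heart, and 12 had at most 34.

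These are the 5 public CDR3s with the highest share in a heart, shown for comparison with the abundant node CDR3s above.
Heart 2, TRBV19 and TRBJ2-2: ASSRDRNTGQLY
Heart 3, TRBV4 and TRBJ1-2: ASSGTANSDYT
Heart 2, TRBV5 and TRBJ1-1: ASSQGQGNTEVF
Heart 1, TRBV5 and TRBJ2-7: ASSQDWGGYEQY
Heart 1, TRBV19 and TRBJ2-7: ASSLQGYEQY

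The first of these, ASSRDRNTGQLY, had 36664 reads in heart 2, 0.833% of that library and 180-fold its mean node share of 0.00464%, and none in the other hearts. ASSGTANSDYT had 38045 reads in heart 3 (0.742%) and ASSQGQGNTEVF 30405 in heart 2 (0.691%). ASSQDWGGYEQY had 15869 reads in heart 1 (0.654%) and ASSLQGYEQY 9700 (0.3997%). All 5 were unlisted in the other 2 hearts. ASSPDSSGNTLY (0.376% of heart 3), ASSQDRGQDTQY (0.373% of heart 1), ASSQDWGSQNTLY (0.339% of heart 1), GARTGGYAEQF (0.233% of heart 1) and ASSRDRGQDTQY (0.153% of heart 3) completed the 10 highest. The highest public CDR3 of each heart ranked at place 32, 19 and 17 in hearts 1, 2 and 3.

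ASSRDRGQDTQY was the only one in 2 hearts, with 17 reads in heart 1 and 7851 in heart 3. In the nodes it had 803, 329, 763 and 2135 reads after sham, 280, 252 and 45 after MI, 252, 149, 232 and 409 after adjuvant, 402 and 269 after myosin, and 1610, 291 and 571 after heart extract. Its MI and sham ranges did not overlap, but came close, with 280 reads in MI node 1 and 329 in sham node 2. The edgeR log2 difference between MI and sham was -2.28 (SE 2.96), which did not pass the threshold. Heart extract node 1 and sham node 4 were the highest. In the nodes 56.0% of its reads were TRBV14, while its heart reads were led by TRBV19.

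In the hearts a public CDR3 mostly came with a single V-J pair: 29 of the 36 had 1 pair there. For 16 of the 36 the leading heart pair was the leading node pair, and for 35 it was listed in at least 1 node. The exceptions to the node lead include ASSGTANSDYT, which was TRBV4 in heart 3 and TRBV19 in the nodes, and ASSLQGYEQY, which was TRBV19 in heart 1 and TRBV14 in the nodes. The members listed in a heart had a median node share of 0.00890%, against 0.00610% for the rest. The DWG motif was in 9 of the 36 and TGG in 9, beside 31 and 24 of all 316. DRG was in 2 of the 36, GQG in 1 and GLG in 0, beside 15, 16 and 2 of all 316.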

How the data were processed

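The deposited tables give, per the labels for 1 library each, whole-number read counts for every combination of CDR3, TRBV and TRBJ segment, after multiplex PCR of TRB transcripts and HiSeq sequencing. For alignment, error correction and genome build, the method is not given in the sources used here. Reads were summed per CDR3, and shares are percent of a library's reads. Node libraries were fitted together in 5 groups with edgeR 4.0.16 in R 4.3.3 (glmQLFit, robust, legacy settings, library totals as offset) over CDR3s listed in 3 or more nodes with 20 or more reads summed, with Benjamini-Hochberg adjustment at 0.05. DESeq2 1.42.0 was an alternative, and its size factors rest on the CDR3s listed in all 16 nodes, which are the public CDR3s themselves. The fit was also run on simulated counts that all had the same fixed spread, which does not show what change it can detect in these data.

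The members and all lists and motifs were chosen with earlier results of these data known. Named CDR3s are the 10 of highest mean node share, 5 just inside and 5 just outside the selection (ties at 2 reads by lowest mean share), those in 2 hearts and the 10 of highest heart share, the 2 of smallest p per contrast, the 5 with the most and fewest V-J pairs, up to 3 of the shortest and longest, and the 5 highest and lowest by coefficient of variation. The labels do not tie libraries to animals, so any p-value reflects only how these libraries spread, which may be technical. The adjuvant volume is not assigned to samples, so it cannot be told apart from the antigen. Equal replicate numbers did not pair the libraries: the correlation of same-numbered deviations ran from -0.0235 to 0.0180.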

Additional observations from a re-analysis of the deposited data

Results flagged for a closer look

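Several overlapping quantities were checked in the sham and adjuvant groups, each of 4 libraries, which made 34 checks. In 2 of the 34, a library lay far from the other 3 of its group. Chance gives about 1 in 20, so 2 of 34 is near the chance rate. The public CDR3s held 2.86% of reads in sham node 4, where the other sham nodes lay between 2.08% and 2.21%. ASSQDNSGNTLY held 0.0451% of reads in adjuvant node 1, where the other adjuvant nodes lay between 0.0271% and 0.0296%.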

How the results depend on the processing

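The number of public CDR3s was 209 with at least 10 reads in every node, 96 for the same CDR3, V and J in every node, 306 with every node drawn down to 7534295 reads, and 316 to 484 with each node left out in turn, the 484 without heart extract node 3. Counting only members with at least 10 reads in every node, summed shares were 1.81% in sham, 1.70% in MI, 1.91% in adjuvant, 1.88% in myosin, 1.89% in heart extract and 1.52% in heart libraries. Without the 10 most abundant members they were 2.01% in MI and 2.17% in myosin nodes. Leaving out each library gave 2.16% to 2.42% in sham, 2.22% to 2.26% in MI, 2.33% to 2.60% in adjuvant, 2.37% to 2.46% in myosin, 2.33% to 2.57% in heart extract and 1.79% to 2.02% in heart libraries. By summed reads TRBV19 made up 17.5%. Length weighted by reads was 11.6 residues. V-J pairs per member had a median of 8 from entries of at least 10 reads and of 7 from pairs in at least 2 nodes. With a consensus of at least 0.7, residues between the ends were 4.51 in public and 5.74 in other CDR3s. Members in at least 1 heart were 23 to 25 with a heart left out. Called public CDR3s remained 0 in all 4 contrasts under TMM, non-legacy, filter, leading-pair, 2-group and one-library-left-out fits, and with a replicate block (0 in each, though the numbers do not pair the libraries). A filter of 100 reads and 12 libraries, chosen after seeing the data, also gave 0. DESeq2 gave 1 for heart extract against adjuvant, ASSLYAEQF. The 8 named log2 differences kept their direction under all 128 alternative values, though not their size. From reads of the leading V-J pair alone, whose libraries include some at 0 so that the fitted size is no bound, they were 4.61 for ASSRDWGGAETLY, -12.26 for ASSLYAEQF, 13.11 for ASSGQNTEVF and 7.79 for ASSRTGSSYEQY. The cause of these changes was not tested beyond what each alternative removes. Nodes list no count under 2, so a rare CDR3 may go unlisted in a node that holds it. The part of depth in this was not tested.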
